A study of Homo sapiens with 18 samples.

Results

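The genes of HLA class I antigen presentation were followed in SK-N-MC cells kept in rotenone: the heavy chain genes HLA-B, HLA-C, HLA-E, HLA-F and HLA-G, the light chain gene B2M, the peptide transporter genes TAP1 and TAP2, and TAPBP, which encodes tapasin. These are 9 of the 11963 genes that the platform's annotation pairs with a probe set of their own. It assigns 25 of the 22215 probe sets that are not controls to them: 3 to HLA-B, 4 to HLA-C, 3 to HLA-E, 3 to HLA-F, 4 to HLA-G, 2 to B2M, 1 to TAP1, 3 to TAP2 and 2 to TAPBP. The annotation gives each of the 25 a single gene. However, 15 of the 17 heavy chain probe sets carry the suffix _x_at, by which the array's maker marks sets whose probes can also match other, similar transcripts, so that a signal listed for one heavy chain gene may hold RNA of another. The exceptions are HLA-E 200904_at and HLA-F 221978_at.

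SK-N-MC is a human cell line that the labels call a neuroepithelioma and the study a neuroblastoma. Cells received vehicle (0.05% ethanol) or rotenone, an inhibitor of mitochondrial complex I that also destabilizes microtubules, at 5 nM or 50 nM, for 1 or 4 weeks, in medium without pyruvate in every group. A group is named by week and dose, so that 1w0 nM is vehicle for 1 week and 4w50 nM the higher dose for 4 weeks, and the 6 groups have 3 arrays each, 18 in all. Each array holds the RNA of 5 pooled dishes of one of 3 experiments on a single line, so the spread between arrays is that between experiments in one line. All 8 markers of the Ewing family of tumours with a probe set passed the filter on low signals, among them CD99 with signals of 2067 to 3471 and NKX2-2 with 816 to 2005. Of 9 markers of sympathetic neuroblastoma with a probe set, 6 passed that filter, among them GATA3, CHGA, ISL1 and MYCN. The others, PHOX2A, TH and HAND2, were not above 30.1 on any array.

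Class I molecules carry peptides from inside the cell to its surface. Peptides made by the proteasome are pumped into the endoplasmic reticulum by the TAP1 and TAP2 transporter, tapasin bridges the transporter to the empty heavy chain, and the heavy chain with its light chain beta-2-microglobulin leaves for the surface once a peptide is bound. HLA-B and HLA-C are classical, highly polymorphic heavy chains that present to T cells and natural killer cells, whereas HLA-E, HLA-F and HLA-G are less variable and best known as ligands of receptors on natural killer cells and other leukocytes. Interferons and inflammatory cytokines induce most of these genes, class I promoters carry binding sites for NF-kappaB, interferon regulatory factors and RFX in a short stretch before the transcript start, and neuroblastoma is known for low class I levels.

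Because the heavy chain genes moved together, as described below, while B2M did not follow them by the same size, the 200 bases before the transcript start are shown for these genes, from RefSeq on GRCh38.p14. The stretches are chr6:31357180-31357379 for HLA-B (minus strand), chr6:31272093-31272292 for HLA-C (minus strand), chr6:29827625-29827824 for HLA-G (plus strand, the most downstream of 3 listed starts), chr6:29723234-29723433 for HLA-F (plus strand), chr15:44711317-44711516 for B2M (plus strand) and chr6:33314079-33314278 for TAPBP (minus strand). Capitals mark the letters GGGGATTC of the class I kappaB element, GAAANNGAA of an interferon response element, TGACG of the X2 box, and CCAAT, each on either strand.
HLA-B: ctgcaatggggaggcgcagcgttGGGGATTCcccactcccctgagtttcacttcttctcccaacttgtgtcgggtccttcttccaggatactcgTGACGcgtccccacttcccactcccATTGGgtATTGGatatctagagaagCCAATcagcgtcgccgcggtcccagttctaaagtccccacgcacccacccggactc
HLA-C: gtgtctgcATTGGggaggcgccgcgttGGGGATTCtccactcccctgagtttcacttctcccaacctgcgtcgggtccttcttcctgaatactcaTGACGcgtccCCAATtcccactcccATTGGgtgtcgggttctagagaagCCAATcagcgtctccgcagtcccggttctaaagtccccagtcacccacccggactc
HLA-G: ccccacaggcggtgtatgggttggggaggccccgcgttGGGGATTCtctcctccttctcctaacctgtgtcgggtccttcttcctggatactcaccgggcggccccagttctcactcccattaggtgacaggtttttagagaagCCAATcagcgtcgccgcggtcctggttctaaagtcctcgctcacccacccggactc
HLA-F: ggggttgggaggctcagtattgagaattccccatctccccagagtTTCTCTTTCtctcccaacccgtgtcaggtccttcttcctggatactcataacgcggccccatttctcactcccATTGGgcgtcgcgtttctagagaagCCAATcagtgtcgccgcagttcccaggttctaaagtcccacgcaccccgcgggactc
B2M: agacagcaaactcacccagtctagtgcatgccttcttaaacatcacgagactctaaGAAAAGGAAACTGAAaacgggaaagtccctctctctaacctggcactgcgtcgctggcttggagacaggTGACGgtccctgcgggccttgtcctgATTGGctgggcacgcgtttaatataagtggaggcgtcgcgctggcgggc
TAPBP: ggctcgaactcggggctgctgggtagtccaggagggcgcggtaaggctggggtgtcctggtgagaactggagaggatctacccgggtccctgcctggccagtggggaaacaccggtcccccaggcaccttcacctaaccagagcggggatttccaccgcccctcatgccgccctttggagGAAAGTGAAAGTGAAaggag

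The kappaB letters stood once each before HLA-B, HLA-C and the most downstream HLA-G start, and occur in 0.888% of the 35116 RefSeq promoter windows of 300 bases. The other listed starts of HLA-G, and the more downstream TAP1 start, had no match of any of these motifs. The interferon response letters were matched once before HLA-F, once before TAP2, and as 2 overlapping matches each before B2M, TAPBP and the more upstream of the 2 TAP1 starts, and they occur in 8.11% of all windows. TGACG was matched before HLA-B, HLA-C, B2M and TAP2 and occurs in 24.6% of windows. CCAAT lay 56 to 52 bases before the start of HLA-B, HLA-C and HLA-G and 57 to 53 bases before that of HLA-F, and occurs in 34.6% of windows. A match describes these exact letters only. Other spellings of the elements were not searched, so a stretch without a match may still hold such an element. HLA-E has no entry in the promoter table used here and was not searched.

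**Figure D1:**
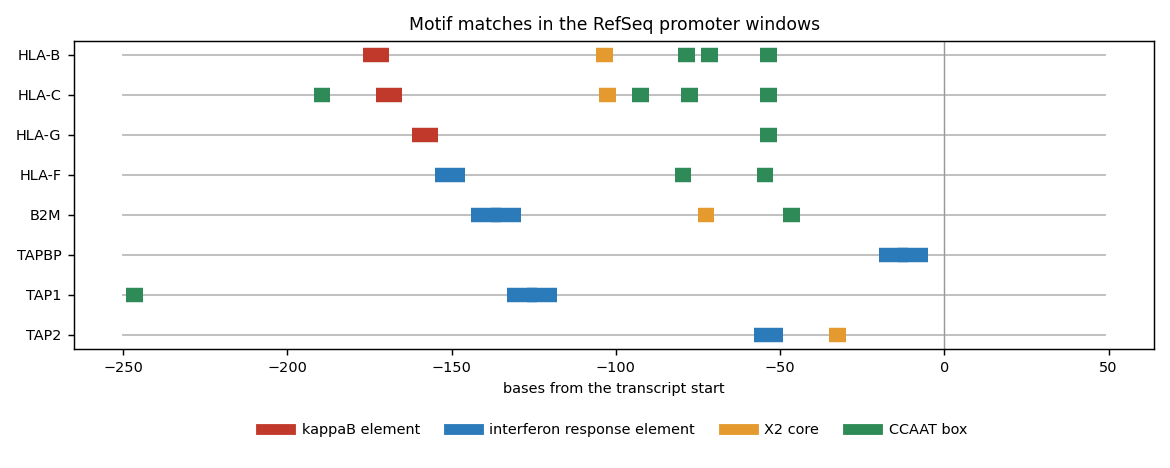
Each grey line is a RefSeq promoter window, from 250 bases before to 49 after the first base of the transcript (0), and the coloured blocks are matches of 4 short motifs on either strand. HLA-B, HLA-C and HLA-G have the kappaB letters between 177 and 155 bases before the start, and HLA-F, B2M, TAPBP, TAP1 and TAP2 have interferon response letters. HLA-G is drawn at its most downstream listed start and TAP1 at its more upstream one. Their other starts had no match and are not drawn. Only 1 spelling of each motif was searched, so a line without a block may still hold the element.

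Before the comparisons, 2 features of the arrays have to be given. The mean log2 signal of 18 hybridization control probe sets, which report RNA added at the array facility, differed between arrays. It was 8.69 to 9.10 on the 6 arrays of cells kept in rotenone for 4 weeks, and 9.69 to 10.1 on the other 12. The lower values fall on exactly the treated arrays at 4 weeks. Their part in the 4-week differences therefore cannot be told apart from that of rotenone, and was not tested. B2M, a bright gene, had a group mean of 4244 ± 223 at 4w5 nM and 4639 ± 299 at 4w0 nM (SD, n = 3), which does not measure that part. In the 1w0 nM group, replicate 2 had the lowest signal in all 3 HLA-B probe sets, and the group as a whole was lower in heavy chain signal than the 4w0 nM group given the same vehicle. In these bulk samples, fewer cells of a kind and less RNA per cell cannot be told apart.

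At 4 weeks, the heavy chains and tapasin were lower with both doses of rotenone than with vehicle. HLA-B and HLA-G fell most among the genes' brightest probe sets at 5 nM and 50 nM, respectively, and HLA-E least at 5 nM. The loss at 50 nM was smaller than that at 5 nM for HLA-B, HLA-C, HLA-F and HLA-G. B2M changed by at most 1.19-fold, and TAP1 and TAP2 did not pass the test. At 1 week the same heavy chains and tapasin were higher with either dose than with vehicle. The 1w5 nM and 1w50 nM levels were close to 4w0 nM, and the 1w0 nM arrays were lower than these. Through the brightest probe sets, the 4w50 nM arrays overlapped with 1w0 nM in HLA-B, HLA-C, HLA-E, HLA-F and TAPBP, but not in HLA-G. Of the same genes, HLA-E and TAPBP also overlapped with 1w0 nM at 4w5 nM. Which vehicle group stands for untreated cells was not tested.

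HLA-B was read by 208729_x_at, the brightest of its 3 probe sets. Its signal, a linear intensity, was 1016, 609 and 1326 at 1w0 nM, 2195, 2053 and 2085 at 1w5 nM, and 2173, 2054 and 2264 at 1w50 nM. At 4 weeks it was 2304, 2025 and 1980 with vehicle, 395, 459 and 546 with 5 nM, and 940, 953 and 860 with 50 nM. The 4w5 nM arrays lay below all others, the 4w50 nM arrays overlapped with 1w0 nM, and the remaining 3 groups overlapped one another. Against vehicle at 4 weeks HLA-B was 4.54-fold lower with 5 nM (log2 difference -2.18, SE 0.19, adjusted p = 7.5e-07) and 2.29-fold lower with 50 nM (-1.19, SE 0.19, adjusted p = 0.00012). At 50 nM it was 1.98-fold higher than at 5 nM after 4 weeks (adjusted p = 0.0024).

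The other HLA-B probe sets moved likewise, 211911_x_at from 1806, 1584 and 1607 at 4w0 nM to 280, 296 and 308 at 4w5 nM. HLA-C, through 216526_x_at, had 834, 671 and 1122 at 1w0 nM, 1979, 2161 and 1876 at 1w5 nM, and 2160, 2036 and 1834 at 1w50 nM. Its 4-week signals were 1975, 2010 and 1968 with vehicle, 599, 539 and 640 with 5 nM, and 1121, 1139 and 1092 with 50 nM. In this probe set the 3 groups at 4 weeks did not overlap, and only 4w5 nM lay wholly below 1w0 nM. In 208812_x_at and 214459_x_at, 4w5 nM overlapped with 1w0 nM and 4w50 nM lay wholly above it. HLA-C was 3.36-fold lower with 5 nM at 4 weeks (adjusted p = 3.2e-07) and 1.78-fold lower with 50 nM (adjusted p = 0.00017). Its dimmest probe set, 211799_x_at, had the greatest difference of the 24 probe sets tested, -3.19 (SE 0.30) with 5 nM at 4 weeks, with 401, 422 and 427 at 4w0 nM against 54.5, 44.0 and 39.5 at 4w5 nM.

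HLA-F and HLA-G, nonclassical heavy chains, had the same course. HLA-F 221875_x_at had 1976, 1891 and 2061 at 4w0 nM, 427, 464 and 578 at 4w5 nM, and 909, 940 and 946 at 4w50 nM. HLA-G 211528_x_at had 1762, 1875 and 1809 at 4w0 nM, 405, 443 and 511 at 4w5 nM, and 730, 789 and 766 at 4w50 nM. In both genes the 3 groups at 4 weeks were apart from one another in the order 4w5 nM, 4w50 nM, 4w0 nM. HLA-F was 4.07-fold lower with 5 nM (adjusted p = 1.5e-07) and 2.12-fold lower with 50 nM (adjusted p = 3.1e-05). HLA-G was 4.03-fold lower with 5 nM (adjusted p = 5.6e-08) and 2.38-fold lower with 50 nM (adjusted p = 4.5e-06). At 1 week their vehicle arrays had 1284, 810 and 1261 for HLA-F and 1231, 887 and 1309 for HLA-G, against 1662 to 1922 and 1510 to 1910 on the 6 arrays of treated cells.

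HLA-E differed between its probe sets. HLA-E 200905_x_at had 387, 410 and 496 at 1w0 nM, 789, 655 and 701 at 1w5 nM, 752, 723 and 770 at 1w50 nM, 755, 746 and 802 at 4w0 nM, 321, 336 and 515 at 4w5 nM, and 450, 415 and 386 at 4w50 nM. It was 2.01-fold lower with 5 nM and 1.84-fold lower with 50 nM at 4 weeks (adjusted p = 0.00015 and 0.00028), and the difference between the doses, 0.13 (SE 0.16), did not pass the test. HLA-E 200904_at, which lacks the suffix, had 125, 160 and 152 at 4w0 nM, 97.7, 121 and 242 at 4w5 nM, and 162, 174 and 170 at 4w50 nM. Its differences at 4 weeks were -0.03 with 5 nM (95% interval -0.58 to 0.52, adjusted p = 0.95) and 0.22 with 50 nM (-0.34 to 0.77, adjusted p = 0.54), intervals that do not reach the -1.01 and -0.88 of 200905_x_at. For HLA-E, then, a fall at 4 weeks rests on the 2 probe sets whose probes can match similar transcripts.

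HLA-F also has a probe set without the suffix, 221978_at. Its signal was 87.4, 89.4 and 79.6 at 4w0 nM, 39.7, 42.7 and 51.6 at 4w5 nM, and 60.7, 48.4 and 54.1 at 4w50 nM, with both treated groups below vehicle. The fall was 0.94 on the log2 scale (SE 0.17, adjusted p = 0.00049) with 5 nM and 0.66 (SE 0.17, adjusted p = 0.005) with 50 nM, smaller than in its _x_at sets but called. At 1 week it had 67.3, 75.9 and 105 with vehicle, 83.4, 79.3 and 76.3 with 5 nM, and 91.7, 95.7 and 114 with 50 nM, overlapping groups with differences of -0.03 and 0.30 that did not pass the test.

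**Figure D2:**
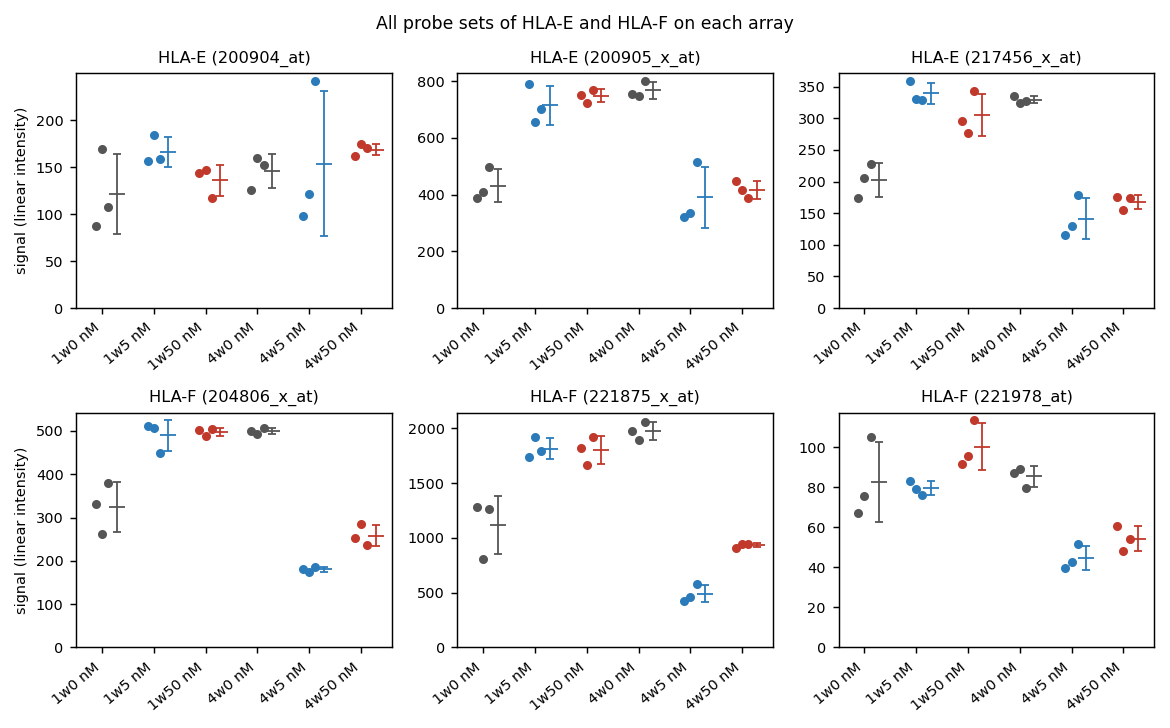
Linear signal of the 3 probe sets of HLA-E (top) and of HLA-F (bottom) on each array, by week and dose (grey vehicle, blue 5 nM, red 50 nM), with mean and SD (n = 3) beside the points. The _x_at sets fall at 4 weeks with rotenone, HLA-F 221978_at falls from 79.6 to 89.4 to between 39.7 and 60.7, and HLA-E 200904_at does not separate the groups.

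Over the 18 arrays the log2 signals of the 15 _x_at heavy chain sets correlated with one another at r = 0.82 to 0.99, as a description of sets that share arrays and may share transcripts. HLA-F 221978_at correlated with them at 0.61 to 0.88, and HLA-E 200904_at at -0.08 to 0.23.

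B2M, the light chain of every heavy chain above, was bright and nearly level. Its brighter probe set, 216231_s_at, had 4871, 4744 and 4301 at 4w0 nM, 4213, 4038 and 4482 at 4w5 nM, and 3957, 3941 and 3782 at 4w50 nM. With 50 nM it was 1.19-fold lower (log2 difference -0.25, SE 0.08, adjusted p = 0.016), and with 5 nM the difference was -0.13 (95% interval -0.29 to 0.04, adjusted p = 0.22). The lower level with 50 nM lost its call when arrays were scaled to a common median (-0.20, adjusted p = 0.074), without the intensity trend (adjusted p = 0.073) and without 4w0 nM replicate 1 or 2 (adjusted p = 0.071 and 0.057). The other B2M probe set, 201891_s_at, had 3261, 3478 and 3340 at 4w0 nM and 3208, 3210 and 3287 at 4w50 nM, a difference of -0.05 (95% interval -0.21 to 0.10). At 1 week the B2M differences of 216231_s_at were 0.11 with 5 nM and 0.06 with 50 nM, neither of which passed the test. B2M was also the reference gene for the study's quantitative RT-PCR, whose primers are given here because all its other transcripts were read relative to this one.
Sense primer: catgtgactttgtcacagcccaaga
Antisense primer: caatccaaatgcggcatcttca

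Tapasin followed the heavy chains. TAPBP, through 208829_at, had 350, 358 and 290 at 1w0 nM, 677, 850 and 626 at 1w5 nM, and 620, 769 and 580 at 1w50 nM. Its 4-week signals were 682, 685 and 653 with vehicle, 280, 256 and 332 with 5 nM, and 355, 344 and 363 with 50 nM. The 4w5 nM, 1w0 nM and 4w50 nM levels lay together in the lower range, apart from the other 3 groups. TAPBP was 2.34-fold lower with 5 nM (adjusted p = 1.5e-05) and 1.90-fold lower with 50 nM (adjusted p = 0.0001) at 4 weeks, and the doses did not differ by the test (0.30, SE 0.15, adjusted p = 0.18). A second, dim TAPBP probe set, 210294_at with 13.3 to 59.2, passed no test against vehicle but was higher at 4w50 nM than at 4w5 nM (0.89, SE 0.26, adjusted p = 0.024).

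The transporter genes were dim, and neither passed the test in the fit of all groups. TAP1 202307_s_at had 86.6, 82.3 and 72.8 at 4w0 nM, 68.5, 72.3 and 107 at 4w5 nM, and 60.7, 63.0 and 55.3 at 4w50 nM. Its differences at 4 weeks were 0.01 (95% interval -0.44 to 0.46) with 5 nM and -0.43 (-0.88 to 0.02, adjusted p = 0.12) with 50 nM. TAP2 204769_s_at had 63.2, 60.6 and 65.9 at 4w0 nM, 91.3, 64.1 and 101 at 4w5 nM, and 93.8, 76.9 and 73.5 at 4w50 nM, with differences of 0.41 (SE 0.17, adjusted p = 0.073) and 0.36 (SE 0.17, adjusted p = 0.1), neither of which passed the test. These calls depend on the processing. TAP1 was called lower with 50 nM when only the groups compared were fitted (-0.43, adjusted p = 0.026), with array weights (-0.42, adjusted p = 0.0073) and without 1w0 nM replicate 3 (-0.43, adjusted p = 0.043), and TAP2 was called higher with 50 nM after quantile normalization (0.41, adjusted p = 0.043) and with array weights (0.44, adjusted p = 0.0085). TAP2 204770_at gave 0.50 and 0.41, also not called, and TAP2 208428_at, at 1.0 to 11.6 on all arrays, did not pass the filter.

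**Figure D3:**
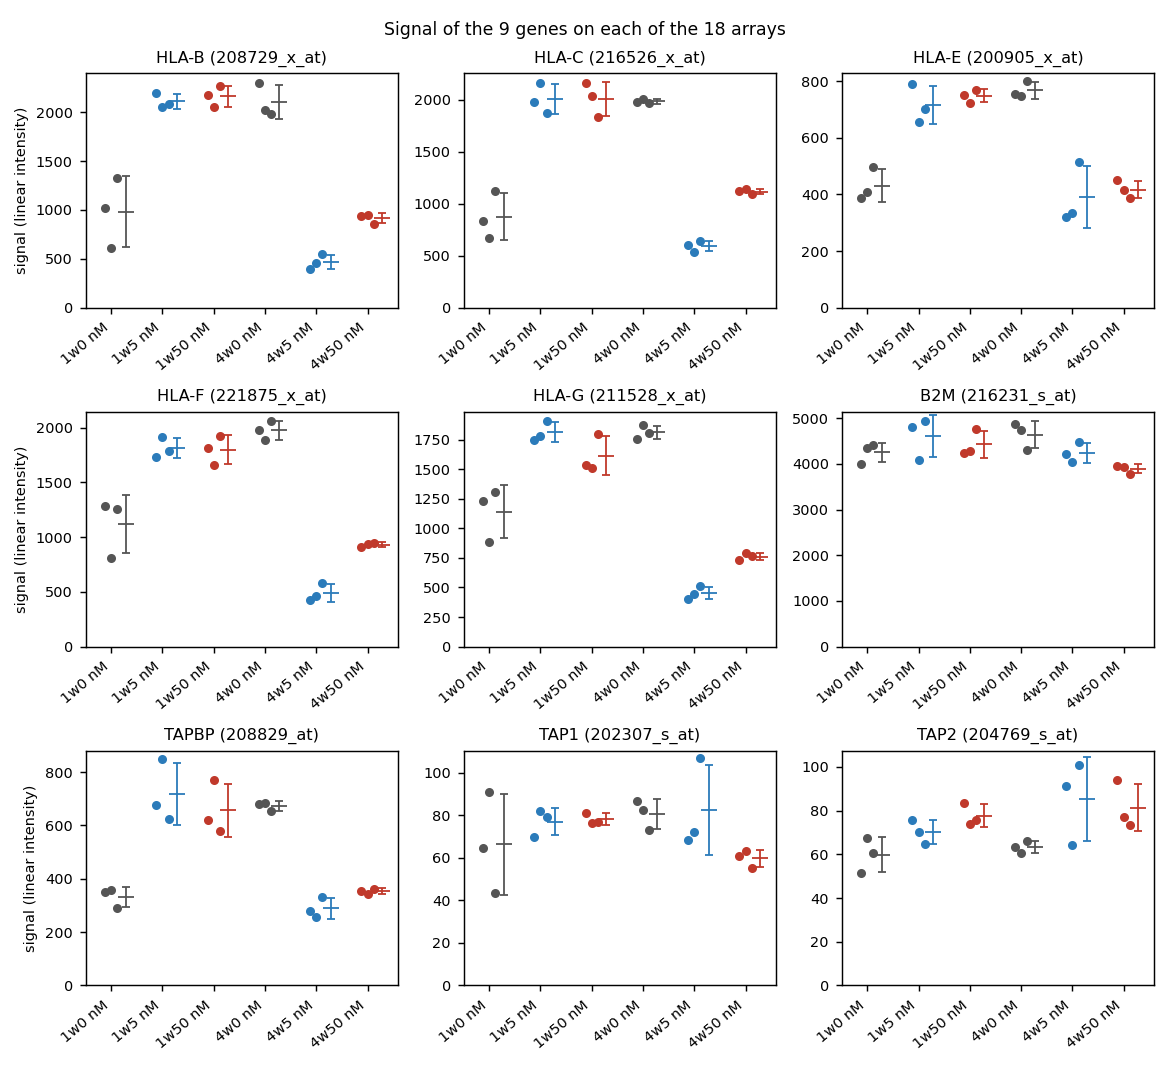
Linear signal of each gene's brightest probe set on the 18 arrays, by week and dose (grey vehicle, blue 5 nM, red 50 nM), with the mean and SD (n = 3) beside the points; each panel has its own scale from 0. HLA-B falls from between 1980 and 2304 at 4w0 nM to between 395 and 546 at 4w5 nM, while B2M stays between 3782 and 4943 on all arrays.

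Counted over the probe sets, 24 of the 25 passed the filter and were tested among 15572, with a call at an adjusted p below 0.05. With 5 nM at 4 weeks 17 of the 24 were lower and none was higher, where 14.2% of all probe sets tested were called lower and 17.7% higher. With 50 nM at 4 weeks 18 of the 24 were lower and none higher, where 17.9% of all were lower and 22.3% higher. The median difference of the 24 was -1.43 with 5 nM and -0.86 with 50 nM, and over all probe sets tested it was 0.02 and 0.01. With 50 nM against 5 nM at 4 weeks, 14 of the 24 were higher and none lower, where 9.27% of all were called higher. These 14 were 13 heavy chain probe sets and TAPBP 210294_at.

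At 1 week 16 of the 24 were higher with 5 nM, where 5.08% of all were called higher, and 16 were higher with 50 nM, where 8.39% were; none was lower with either dose. The 16 were the 15 _x_at heavy chain sets and TAPBP 208829_at in both comparisons. HLA-C 216526_x_at, for one, was 2.34-fold higher with 5 nM (adjusted p = 4.6e-05) and 2.34-fold higher with 50 nM (adjusted p = 4.3e-05), comparisons that share the 1w0 nM arrays. Between the doses at 1 week none of the 24 was called by limma and none had an unadjusted p below 0.05, where 1 of all probe sets (0.00642%) was called lower.

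The 1-week rise depends on which vehicle arrays are taken. In cells given vehicle alone, 16 of the 24 were higher at 4 weeks than at 1 week, where 2.67% of all probe sets were called higher, and HLA-C was 2.32-fold higher (adjusted p = 5.4e-05). When the 4-week vehicle arrays took the place of the 1-week ones, an alternative chosen after the data were seen, none of the 24 was called by limma at 1 week with either dose and 0 had an unadjusted p below 0.05. The 1-week HLA-B differences were then 0.0083 and 0.043, and among all 15572 probe sets 0 were called with 5 nM, and 32 higher and 842 lower with 50 nM. With limma fitted to the arrays of each comparison alone, 2 of the 24 were called with 5 nM and 8 with 50 nM at 1 week. The reverse exchange, with 1w0 nM arrays as the vehicle at 4 weeks, was not run. Means at 4w50 nM and 1w0 nM were 918 and 984 for HLA-B, 1117 and 876 for HLA-C, and 417 and 431 for HLA-E. They were 932 and 1118 for HLA-F, 762 and 1142 for HLA-G, and 354 and 333 for TAPBP. Of these brightest probe sets, only that of HLA-G had all 4w50 nM arrays below all 1w0 nM arrays. The other HLA-G probe sets overlapped with 1w0 nM, and HLA-C 208812_x_at and 214459_x_at had all 4w50 nM arrays above it. The 4-week fall with 50 nM thus also depends on the vehicle group. So does that with 5 nM for HLA-E and TAPBP, whose 4w5 nM arrays (means 391 and 289) overlapped with 1w0 nM. HLA-C 208812_x_at and 214459_x_at overlapped likewise at 4w5 nM. In the brightest sets of HLA-B, HLA-C, HLA-F and HLA-G, all 4w5 nM arrays lay below all 1w0 nM arrays. Which of the vehicle groups gives the level of untreated cells was not tested.

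The change of the dose effect between the weeks is a comparison of 4 groups. The effect of 5 nM at 4 weeks minus that at 1 week was lower in 17 of the 24, where 16.9% of all probe sets were, and that of 50 nM in 18, where 19.6% were. For HLA-B the difference of effects was -3.35 (SE 0.27) with 5 nM and -2.40 (SE 0.27) with 50 nM. Its 1-week part is measured against 1w0 nM and its 4-week part against 4w0 nM, which was higher.

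**Figure D4:**
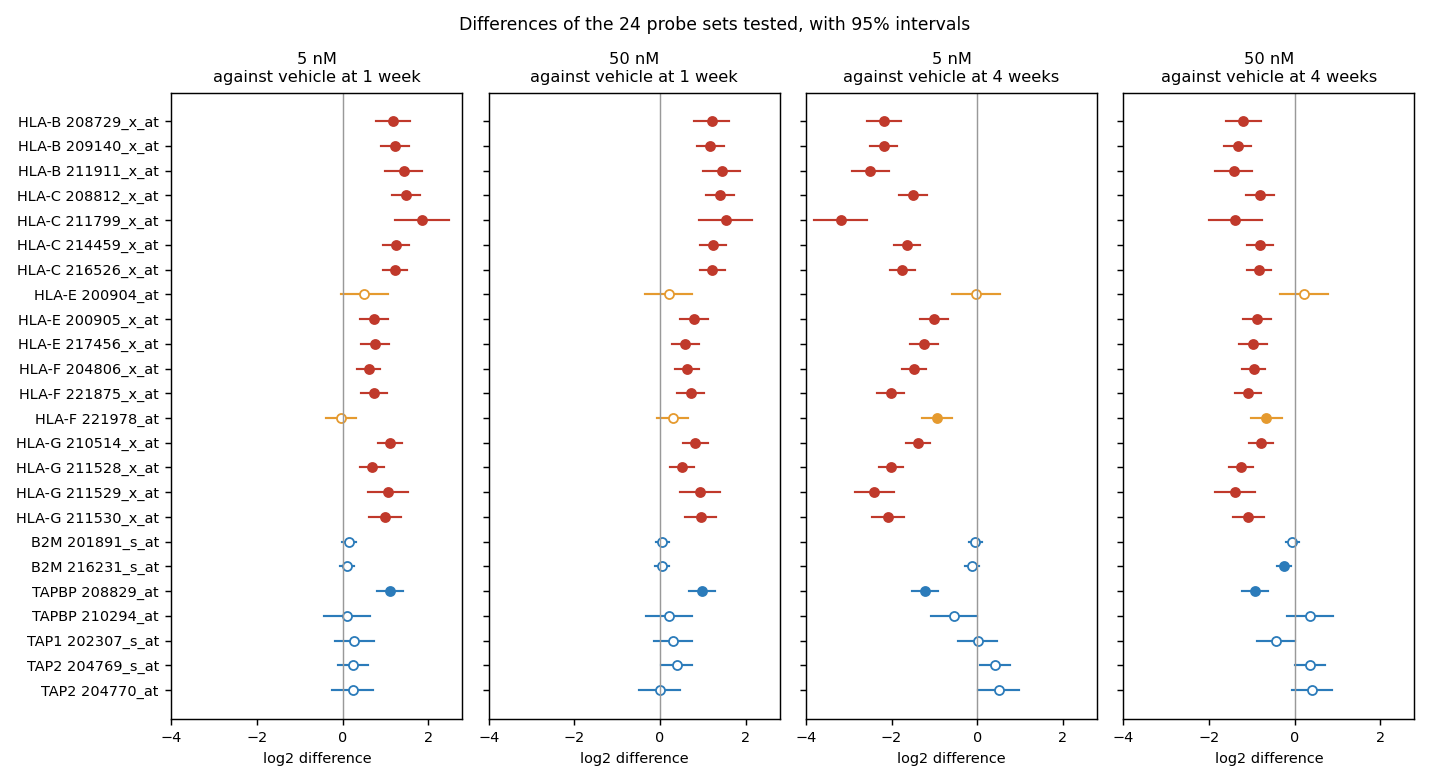
Log2 difference from vehicle of the 24 probe sets tested, with 95% intervals, in 4 comparisons; filled points have an adjusted p below 0.05, red marks heavy chain _x_at sets, orange the other heavy chain sets and blue B2M, TAPBP, TAP1 and TAP2. Red points are above 0 at 1 week and below 0 at 4 weeks, from -1.01 to -3.19 with 5 nM.

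Other genes of the loading route, from a list of chaperones and trimming enzymes, mostly stayed near vehicle. Of 8 tested, 1 was higher with 5 nM at 4 weeks, NPEPPS, a cytosolic aminopeptidase (0.70, adjusted p = 0.014). With 50 nM 1 was lower, CALR, the chaperone calreticulin (-0.37, adjusted p = 0.031). The list medians were 0.01 and -0.22. Over all 9162 genes tested, 18.5% were higher with 5 nM and 17.5% lower with 50 nM. At 1 week 0 of the 8 were called by limma, with an unadjusted p below 0.05 in 1 with 5 nM and 2 with 50 nM. None of the 4 tested genes of the immunoproteasome, the interferon-induced form of the proteasome, was called by limma with either dose at either week (2 had an unadjusted p below 0.05 with 5 nM at 4 weeks and 1 with 50 nM at 1 week), with medians of -0.26 and -0.11 at 4 weeks, and PSMB9 was at 44.3 to 83.6 on all arrays.

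Of 11 tested regulators of class I promoters, 2 were higher and 1 lower with 5 nM at 4 weeks, and 2 higher and 2 lower with 50 nM, with medians of 0.00 and 0.04. These are few genes, and over all probe sets tested 17.7% were higher and 14.2% lower with 5 nM, and 22.3% higher and 17.9% lower with 50 nM, so the list's shares of calls were near or below these. IRF1, an activator of class I promoters, fell from a mean of 113 with vehicle to 59.9 with 5 nM (adjusted p = 0.00011) and 56.6 with 50 nM (adjusted p = 3.3e-05). IRF2, known as an antagonist of IRF1 at the same element, rose by 0.64 (adjusted p = 0.013) and 1.28 (adjusted p = 4.4e-05). NFYA, a subunit of the CCAAT-binding factor, rose by 0.63 (adjusted p = 0.0029) and 0.65 (adjusted p = 0.0017). RFXANK, a subunit of the RFX complex, fell with 50 nM (-0.68, adjusted p = 0.011). At 1 week none of the 11 was called by limma with 5 nM (3 at an unadjusted p below 0.05), and 4 were lower with 50 nM, where 11.4% of all genes tested were.

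Interferon-responsive genes moved in part as the heavy chains did. Of 22 tested, 13 were lower and none higher with 5 nM at 4 weeks, and 10 lower and none higher with 50 nM. The list medians were -0.63 and -0.43, against 0.02 and 0.01 over all probe sets tested. Over all 9162 genes tested, 14.1% were lower with 5 nM and 17.5% with 50 nM. At 1 week 5 of the list were higher with 5 nM and 9 with 50 nM, and 5 were higher with vehicle at 4 weeks than at 1 week. Over all genes these shares were 5.06%, 8.94% and 2.72%. IFI6, an interferon-induced membrane protein, had means of 36.1, 136 and 132 with vehicle, 5 nM and 50 nM at 1 week, and of 132, 23.8 and 62.6 at 4 weeks. Its difference from vehicle at 4 weeks was -2.48 with 5 nM (adjusted p = 2.6e-07) and -1.10 with 50 nM (adjusted p = 0.00026). ISG15, a ubiquitin-like protein, was lower by -1.34 and -0.90 (adjusted p = 4.7e-05 and 0.00078). IFITM2, a membrane protein that restricts viral entry, fell from a mean of 1092 to 543 and 557 (adjusted p = 0.00011 and 7.3e-05).

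Of 7 tested interferon receptor and kinase genes, 1 was higher and 1 lower with 5 nM at 4 weeks, and 1 higher and 2 lower with 50 nM. At 1 week 2 were higher with 5 nM, and 2 higher and 2 lower with 50 nM. Over all 9162 genes tested, 18.5% were higher and 14.1% lower with 5 nM at 4 weeks, and 23.3% and 17.5% with 50 nM. At 1 week 5.06% of all were higher with 5 nM, and 8.94% higher and 11.4% lower with 50 nM. For so few genes, the 4-week counts were near these shares. IFNGR1, a chain of the interferon gamma receptor, was higher with 50 nM (0.98, adjusted p = 5.3e-05), and TYK2 was lower with both doses (-0.66 and -0.60, adjusted p = 0.0022 and 0.0032). JAK2 was higher with 5 nM (1.04, adjusted p = 0.0039), and JAK1 lower with 50 nM (-0.23, adjusted p = 0.038).

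Genes for class I-like proteins did not share one direction. Of 9 tested, 1 was higher and 1 lower with 5 nM at 4 weeks, and 1 higher and 2 lower with 50 nM, with medians of 0.02 and -0.07. Over all 9162 genes tested, 18.5% were higher and 14.1% lower with 5 nM, and 23.3% and 17.5% with 50 nM. For so few genes, the list's counts were near or below these shares. At 1 week none was called by limma with 5 nM (2 at an unadjusted p below 0.05). With 50 nM 1 was higher, where 8.94% of all genes were. MICA, a stress-induced ligand of the natural killer cell receptor NKG2D, rose by 0.79 (adjusted p = 0.034) and 1.44 (adjusted p = 0.00052). HFE, which takes part in iron uptake, was lower (-0.61 and -0.56, adjusted p = 0.0024 and 0.0031), and FCGRT, the heavy chain of the neonatal Fc receptor, was lower with 50 nM (-1.64, adjusted p = 0.002). HFE, MICA and FCGRT all lie outside the member list, and HFE and FCGRT also pair with B2M.

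Class II genes, which serve antigen presentation by leukocytes, were mostly dim, with HLA-DMB, a chaperone of class II peptide loading, as an exception. Of 8 tested, 3 were lower with each dose at 4 weeks and none higher, with medians of -0.50 and -0.44, and 1 was higher at 1 week with 50 nM. Over all 9162 genes tested, 14.1% were lower with 5 nM and 17.5% with 50 nM at 4 weeks, and 8.94% were higher at 1 week with 50 nM. HLA-DMB went from a mean of 461 at 4w0 nM to 195 at 4w5 nM and 268 at 4w50 nM (adjusted p = 0.00091 and 0.015), and HLA-DPB1 from 74.1 to 44.96 and 52.2 (adjusted p = 0.0026 and 0.017). CD74, the invariant chain, was lower by -1.26 and -1.40 and was at 96.3 or less on all arrays. HLA-DRA was at 43.1 or less on all arrays and was not tested.

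Markers of other cells were set beside these values. Of 12 fibroblast markers, all tested, 5 were higher with 5 nM and 6 with 50 nM at 1 week, where 5.06% and 8.94% of all genes were. At 4 weeks 6 were lower and 1 higher with 5 nM, where 14.1% and 18.5% of all genes were. With 50 nM 6 were lower, where 17.5% of all genes were. Their summed signal was 6773 to 7459 at 1w0 nM, 10521 to 11660 over the treated arrays at 1 week, 10922 to 11231 at 4w0 nM, 6682 to 8562 at 4w5 nM and 7236 to 7905 at 4w50 nM. As with the heavy chains, the 1w0 nM, 4w5 nM and 4w50 nM arrays were below the others, but these 3 groups overlapped one another. Between the doses at 4 weeks the markers split, with 5 higher and 5 lower with 50 nM than with 5 nM and a median of 0.06. Over all genes tested 9.85% were higher and 6.96% lower. COL6A3, a collagen chain, had means of 73.4 at 1w0 nM, 387 at 4w0 nM, 52.5 at 4w5 nM and 216 at 4w50 nM, and COL1A2 had 1769, 3143, 1097 and 2590. COL1A1 had 942, 557 and 949 at 4w0 nM, 4w5 nM and 4w50 nM, and VIM, the filament protein vimentin, had 2695, 1727 and 2594, so that both were lower with 5 nM (adjusted p = 0.00066 and 0.00059) and neither passed the test with 50 nM. The other way round, COL3A1 had means of 830, 1173 and 99.8, and FN1, which encodes fibronectin, had 1536, 1070 and 220. The part of such cells, or of these genes in SK-N-MC itself, in the heavy chain values was not tested. Of 12 leukocyte markers 10 have a probe set and 5 were tested. PTPRC alone was called higher with 5 nM and AIF1 alone with 50 nM at 4 weeks, where 18.5% and 23.3% of all genes were. The summed signal of the 10 was 999 to 1374 at 1w0 nM, 665 to 759 at 4w0 nM, 1609 to 1869 at 4w5 nM and 786 to 1088 at 4w50 nM. At 4w5 nM most of this sum was PTPRC, so the sum does not measure leukocyte content. CD3D, CD14 and LYZ, which mark T cells and myeloid cells, were at 23.8 or less on all arrays, while PTPRC, a phosphatase of leukocytes, had means of 417 at 4w0 nM, 1483 at 4w5 nM and 210 at 4w50 nM. AIF1, a calcium-binding protein of macrophages and microglia read by an _x_at probe set, had 80.1, 38.7 and 511, with differences of -1.05 with 5 nM (adjusted p = 0.13) and 2.62 with 50 nM (adjusted p = 0.00065).

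The Ewing family markers changed less evenly, with 1 higher and 2 lower of 8 with 5 nM at 4 weeks and 1 higher and 3 lower with 50 nM. Over all 9162 genes tested, 18.5% were higher and 14.1% lower with 5 nM, and 23.3% and 17.5% with 50 nM. Of the 6 sympathetic markers tested, none was called by limma with 5 nM at 4 weeks (1 at an unadjusted p below 0.05) and 2 were lower with 50 nM.

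Genes were then ranked by how closely their log2 signal followed the mean of the 5 heavy chains' brightest probe sets over the 18 arrays, as a description. Of 9153 other genes, 62 had a Pearson r above 0.9. The 10 closest were G0S2, IL2RG, HLA-J, SLIT2, BBLN, CST3, LGALS1, TIMP1, SLC16A5 and MMP9, with r from 0.97 to 0.95. Among them HLA-J is a class I pseudogene, which had means of 653 at 4w0 nM, 264 at 4w5 nM and 363 at 4w50 nM through a probe set that also carries the suffix _x_at. LGALS1, which encodes galectin-1, had means of 119 ± 36.4 at 1w0 nM, 704 ± 24.5 at 4w0 nM, 74.6 ± 7.86 at 4w5 nM and 140 ± 15.5 at 4w50 nM (SD, n = 3), and TIMP1, a metalloproteinase inhibitor, had 1262, 3459, 776 and 1171.

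All members but B2M, on chromosome 15, lie in the major histocompatibility complex, from HLA-F at chr6:29723434-29738532 to TAPBP at chr6:33299694-33314078 (GRCh38.p14). Of 75 other genes tested between these, 25 were lower and 5 higher with 5 nM at 4 weeks, 33.3% and 6.67%, and 15 were lower and 11 higher with 50 nM, 20.0% and 14.7%. On the rest of chromosome 6, of 417 genes 14.9% were lower and 13.4% higher with 5 nM, and 9.11% were lower and 39.3% higher with 50 nM, with a median difference of 0.28 at the higher dose. Among 9162 genes in all, 14.1% were lower and 18.5% higher with 5 nM, and 17.5% lower and 23.3% higher with 50 nM. Between the doses at 4 weeks, the level with 50 nM was higher than with 5 nM in 13.3% of the 75 neighbours, in 31.9% of the rest of chromosome 6 (median difference 0.31) and in 9.85% of all genes. The 4 heavy chains that were higher with 50 nM than with 5 nM lie within the stretch of the 75 neighbours. The larger share of higher calls was on the rest of the chromosome. The part of their place on the chromosome in their difference was not tested. TNF, the inflammatory cytokine, was lower with both doses (-1.20 and -2.07, adjusted p = 0.00027 and 2.9e-06), as were IER3 (-0.94 and -1.67) and HLA-J (-1.30 and -0.84), and ATF6B, an endoplasmic reticulum stress sensor, was higher (1.04 and 1.41, adjusted p = 0.0011 and 5.8e-05). Called genes of either direction lay between HLA-C and TAPBP.

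**Figure D5:**
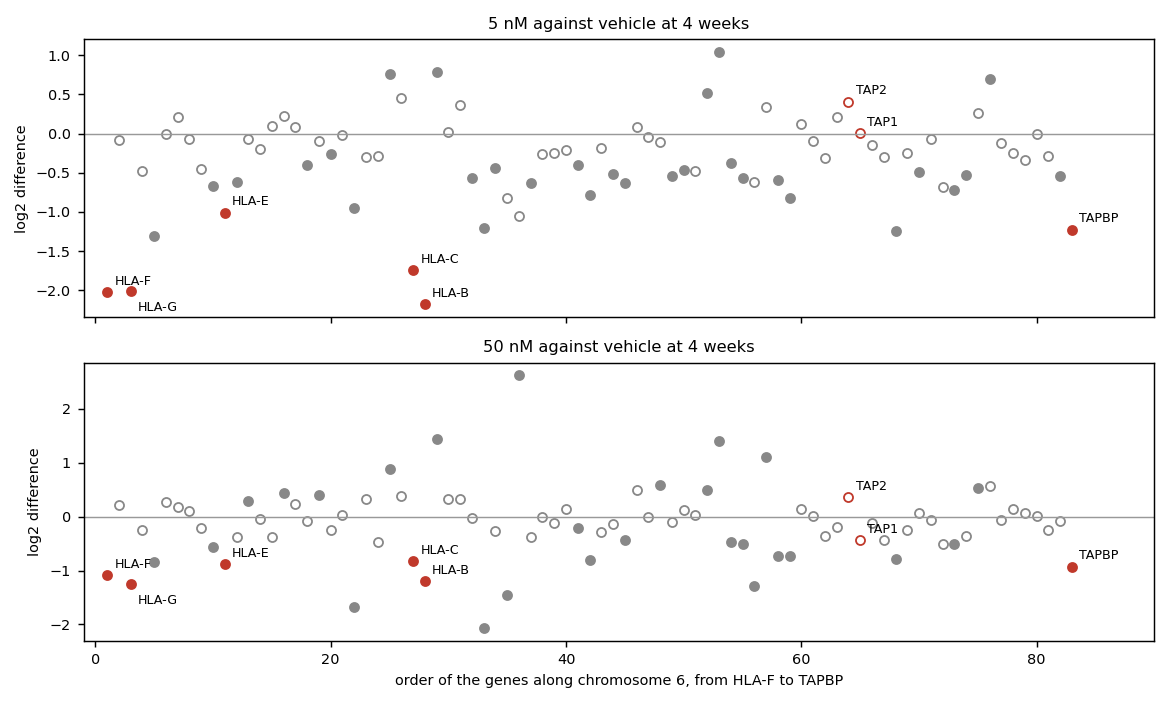
Log2 difference from vehicle at 4 weeks of the 83 genes tested from HLA-F to TAPBP on chromosome 6, in the order of their starts; red points are the 8 members there, grey points the other 75, and filled points have an adjusted p below 0.05. With 5 nM the 5 heavy chains and TAPBP lie between -2.18 and -1.01, with TAP1 and TAP2 at or above 0.01.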

How the data were processed

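Affymetrix human genome arrays were hybridized with cRNA of SK-N-MC cells, 1 array for each of 18 samples. The authors used dChip for normalization and for its model-based index of each probe set, deposited as a linear intensity; the version and genome build are not given in the sources used here. Values were used without further scaling (array medians 87.0 to 102). Genes came from the platform annotation: of the probe sets that are not controls, 19065 have 1 gene, 1043 several and 2107 none.

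Groups followed the sample titles. Signals were floored at 16 and taken as log2, and 15572 of 22215 probe sets at 50 or more on at least 3 arrays were fitted with limma 3.58.1 (R 4.3.3) in 1 model of the 6 groups, with an intensity trend and Benjamini-Hochberg adjustment per comparison over all probe sets tested. Folds are on that log2 scale. Tested on simulated data, the 4-week 50 nM comparison found 76% of 200 probe sets changed 2-fold among 15572. Of 200 changed 1.5-fold it found 28%, and the 1-week 5 nM comparison found 20%. Differences of that size may therefore go uncalled. The number of arrays limits the precision.

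Named were all 9 members, each read through its brightest probe set and then through the others, up to 4 genes of each other list with the smallest adjusted p at 4 weeks, the 10 genes most like the heavy chain mean, and up to 4 chromosomal neighbours; PSMB9, HLA-DRA, COL3A1, FN1 and the low or absent cell markers were named after their values were seen. The members and lists were chosen with earlier results of these data known. The alternatives were the floor, a started log, quantile and median scaling, no filter, 1 probe set per gene, only the arrays compared, no trend, array weights, the replicate number as a block, the methods' t-test, and each array left out. Replicate numbers are shared between groups, but only 5 of 21 same-number pairs deviated together (r over 0.1; range -0.26 to 0.35), so they were not taken as pairs. Promoter windows and gene positions are those of RefSeq, GRCh38.p14.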

Additional observations from a re-analysis of the deposited data

Results flagged for a closer look

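The effect of rotenone at 4 weeks differed from that at 1 week in most of the 9 genes, by the test of the difference itself in limma, each read through its brightest probe set. For 5 nM the difference of the log2 effects was -3.35 for HLA-B, -2.97 for HLA-C, -1.74 for HLA-E, -2.75 for HLA-F, -2.70 for HLA-G and -2.33 for TAPBP, with adjusted p from 1.5e-08 to 2.8e-05. For 50 nM it was -2.40 for HLA-B, -2.06 for HLA-C, -1.69 for HLA-E, -1.80 for HLA-F, -1.77 for HLA-G and -1.90 for TAPBP, with adjusted p from 9.5e-07 to 1.4e-05, and -0.31 for B2M (adjusted p = 0.03). All of these subtract a 1-week effect measured against 1w0 nM from a 4-week effect measured against 4w0 nM. The 2 vehicle groups themselves differed in most of these genes.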

How the results depend on the processing

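The calls at 4 weeks kept their direction under each alternative run. Leaving out 1 array at a time, the number of probe sets called, of 24, was 17 to 19 with 5 nM and 17 to 19 with 50 nM at 4 weeks, 15 to 16 and 15 to 17 at 1 week, 12 to 15 between the doses at 4 weeks, 0 to 0 between them at 1 week, 14 to 16 for vehicle between the weeks, and 17 to 18 and 17 to 19 for the differences of the 5 nM and 50 nM effects. With the replicate block the counts were 16 and 16 at 1 week, 17 and 18 at 4 weeks, and 14 between the doses, and it changed no other count.

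With 1 probe set per gene, genes called of 9 were 6 with 5 nM and 6 with 50 nM at 1 week, 6 and 7 at 4 weeks, 4 between the doses at 4 weeks, 6 for vehicle between the weeks, and 6 and 7 for the differences of effects. With only the arrays compared, 2, 8 and 4 probe sets were called for 5 nM and 50 nM at 1 week and for vehicle between the weeks. The methods' t-test at 2-fold gave 6 and 4 at 1 week, 8 with 50 nM at 4 weeks, 4 between the doses at 4 weeks and 5 for vehicle between the weeks, and after Benjamini-Hochberg adjustment 0 and 0, 7, 0 and 0. Array weights, whose fit stopped before convergence, gave 4 called between the doses at 1 week. When the 4-week vehicle replaced the 1-week vehicle, chosen after the data were seen, 0 and 0 were called at 1 week.

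Differences that changed sign were small. With that replacement the 1-week values were, for 5 nM, -0.11 for HLA-E, -0.066 for TAP1, -6.72e-05 for HLA-G, -0.012 for B2M and -0.12 for HLA-F, and for 50 nM, -0.036 for HLA-E, -0.040 for TAP1, -0.047 for TAPBP, -0.17 for HLA-G, -0.067 for B2M and -0.14 for HLA-F. TAP1 with 5 nM at 4 weeks was -0.18 with array weights, and from -0.19 to 0.13 when single arrays were left out, below 0 without the third array of 4w0 nM or of 4w5 nM. TAP2 between the weeks in vehicle was -0.000513 with quantile normalization, -7.35e-05 with median scaling, -0.021 with array weights, and from -0.014 to 0.18 when single arrays were left out, below 0 without 1w0 nM replicate 1. The fall of B2M with 50 nM at 4 weeks lost its call without 4w0 nM replicate 1 or 2 (adjusted p = 0.071 and 0.057). It also did so with median scaling (0.074) and with no intensity trend (0.073). The methods' t-test calls only differences over 2-fold, so it could not call this one (0.09 after Benjamini-Hochberg adjustment). With 5 nM, B2M was called lower with array weights (-0.16, adjusted p = 0.012). TAP2 was called higher with 5 nM at 4 weeks under both scalings (0.46 and 0.46, adjusted p = 0.032 and 0.041), with array weights (0.0060) and without 4w5 nM replicate 2 (0.60, adjusted p = 0.012), and with 50 nM after quantile normalization (0.043) and with array weights (0.0085). TAP1 was called lower with 50 nM with only the groups compared (0.026), with array weights (0.0073) and without 1w0 nM replicate 3 (0.043). Quantile normalization moved the calls over all probe sets with 5 nM at 1 week from 791 higher and 300 lower to 682 and 581, and median scaling to 569 and 594; for vehicle between the weeks they moved from 415 and 92 to 344 and 215, and to 260 and 201. The cause of these changes was not tested.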
